A study of Rattus norvegicus with 44 samples.

Results

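Ttr, Kl, Sostdc1, Kcnj13, Cnmd, Otx2, Folr1 and Enpp2, 8 genes that mark the epithelium of the choroid plexus, were followed across 44 arrays of choroid plexus and trunk blood from rats exposed to heat or amphetamine. The members were found by the gene symbol of their probe in the platform annotation, current or older, and all 8 were present among the 10412 genes on the array. Cnmd was listed under its older symbol Lect1. Otx2 had 2 probes and each of the other 7 genes had 1, so that 9 of 14055 probes belonged to the members. For Otx2 the probe with the higher mean over the 44 arrays stood for the gene.

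The rats were males of the NCTR strain of Sprague-Dawley, 3 months old, and were sampled 3 h or 1 day after their exposure. AMPH groups had received amphetamine in neurotoxic doses, EIH groups had been overheated by their surroundings (environmentally-induced hyperthermia), and control groups had received saline. Each choroid plexus array held a pool of 3 rats, in 5 groups of 4 arrays: AMPH at 3 h, EIH at 3 h, AMPH at 1 day, EIH at 1 day and saline at 3 h. Blood was hybridised from single rats in 6 groups of 4 arrays: AMPH, EIH and saline, each at 3 h and at 1 day. The design names the damage and protective responses of the choroid plexus as one of its questions, and the epithelial genes bear on whether the secreting cells kept their transcripts after each exposure.

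The choroid plexus is a fold of vascular stroma covered by a single sheet of epithelial cells, which secrete cerebrospinal fluid and form the barrier between blood and that fluid. Its epithelium releases carrier proteins and signalling proteins into the fluid, moves ions and vitamins across the sheet, and depends on the homeodomain factor Otx2 for its development in mice. In bulk tissue, fewer epithelial cells and less RNA per cell cannot be told apart.

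Values are intensities on the log2 scale, and a difference of 1 is a 2-fold change in intensity. The array medians were at most 146 among the 3 h arrays and at least 165 among the 1 day arrays, on the linear scale. No choroid plexus saline pool of 1 day was analysed here, so the 1 day pools were set against saline at 3 h, where exposure, time and the scaling of the arrays cannot be told apart. Of the 20 choroid plexus arrays, the AMPH 1 day replicate 2 stood apart, with the lowest value of all 20 for 29.5% of the 8730 genes measured on every one. Counts of members called within choroid plexus are given with and without it. Saline replicate 4 had the lowest value for 27.9% of these genes, but the members deviated there by a median of -0.05 from the other saline pools. That median includes 3 members held at the upper limit of the array, described below. Cnmd, Kcnj13 and Otx2 had their lowest saline value in replicate 4, at 13.01, 15.08 and 14.75. Kl did not, and Folr1 had its highest, at 14.39. The labels list 5 rat numbers in more than 1 pool, over 7 pools. In the EIH 1 day group, replicates 2 and 3 share a number and so do replicates 3 and 4. Its 4 pools thus hold 10 distinct rats and are not independent. Saline replicate 4 and AMPH 1 day replicate 2, the pools that stood apart, also share a number. Other numbers recur across exposures or times. The labels title the EIH 1 day pools as controls while their source and treatment labels say EIH, and 3 rats of these pools are titled EIH in blood at 1 day. The 4 rats of the saline 3 h blood arrays are also listed in 2 of the choroid plexus saline pools, so the tissues share animals. All p-values refer to variation among pools in choroid plexus and among single rats in blood.

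The array has an upper limit that bears on 3 of the members. The highest value of an array lay between 15.960 and 15.999, and 21 to 40 probes shared the highest value of each choroid plexus array. Ttr was at that value on 20 of 20 choroid plexus arrays, and Sostdc1 and Enpp2 on 19 of 20. For these genes a level in choroid plexus is a lower bound, and a rise, or a fall that stayed above the limit, could not have been seen.

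RefSeq (GRCr8) gave a promoter window, 250 bases before the start site and 50 from it on, for 3 of the 8 members. They are shown because Otx2 is itself a member, and TAATCC is the core bound by Otx-type homeodomains. TAATCC on either strand was in 0 of the 3 windows, against 7.17% of 33469 RefSeq windows of the same length, 5.97% of 9024 windows of genes on the array and 3 of 33 windows of other choroid plexus epithelial genes. After these windows had been read, 2 further strings were counted. The shorter TAATC, which lies within TAATCC, was picked because it had been seen in the 3 windows, so its 3 of 3 against 22.9% of all windows is set by that choice and carries no weight. TATAAA, chosen the same way, was in 1 of 3 windows, that of Kcnj13, against 14.2% of all windows. Capitals mark TAATC or its reverse complement GATTA. A match is a string of letters, not a binding site.
Ttr, chr18:12218508-12218807, + strand: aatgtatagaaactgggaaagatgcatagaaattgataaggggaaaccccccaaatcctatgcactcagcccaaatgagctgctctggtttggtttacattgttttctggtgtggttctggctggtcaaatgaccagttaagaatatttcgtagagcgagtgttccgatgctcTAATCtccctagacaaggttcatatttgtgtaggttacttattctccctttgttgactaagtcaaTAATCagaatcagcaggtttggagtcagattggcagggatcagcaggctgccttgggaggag
Kl, chr12:5325753-5326052, + strand: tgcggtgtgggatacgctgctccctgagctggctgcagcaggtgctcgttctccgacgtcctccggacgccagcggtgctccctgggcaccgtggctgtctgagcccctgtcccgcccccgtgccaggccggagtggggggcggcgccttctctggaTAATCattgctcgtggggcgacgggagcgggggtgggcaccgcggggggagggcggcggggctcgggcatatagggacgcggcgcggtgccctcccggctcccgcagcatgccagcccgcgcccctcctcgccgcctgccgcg
Kcnj13, chr9:95518937-95519236, - strand: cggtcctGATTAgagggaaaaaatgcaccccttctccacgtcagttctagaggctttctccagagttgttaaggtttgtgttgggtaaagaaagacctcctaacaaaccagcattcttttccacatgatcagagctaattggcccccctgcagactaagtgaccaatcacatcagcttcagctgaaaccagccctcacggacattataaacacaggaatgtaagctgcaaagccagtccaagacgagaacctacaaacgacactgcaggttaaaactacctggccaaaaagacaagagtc

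Under saline at 3 h all 8 members were higher in choroid plexus than in blood, at adjusted p from 1.5e-07 to 6.4e-05 (limma across all genes, Benjamini-Hochberg adjustment). In that comparison 56.2% of the 9925 genes tested were called in either direction, so a call alone does not mark a gene as epithelial. The members' median difference was at least 10.41, since 3 of them lay at the ceiling, beside 0.15 over all genes tested.

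Among the secreted proteins, Ttr, which carries thyroxine and retinol-binding protein in cerebrospinal fluid, had 15.984, 15.970, 15.997 and 15.993 in choroid plexus, against 7.30, 3.18 and 3.24 and a blank cell in blood. The difference was at least 11.41 ± 0.99 (SE; n = 4 and 3). Sostdc1, a secreted antagonist of bone morphogenetic proteins that also modulates Wnt signalling, was higher by at least 11.16 ± 0.65. Enpp2, the autotaxin enzyme that makes lysophosphatidic acid, was higher by at least 10.06 ± 0.29. Cnmd, the secreted protein chondromodulin known from cartilage, had 15.06, 13.63, 14.08 and 13.01 in choroid plexus, against 3.12, 3.18 and 3.24 and a blank cell in blood, a difference of 10.76 ± 0.46 (n = 4 and 3).

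The membrane proteins and the nuclear factor had the same order. Kcnj13, the inward rectifier potassium channel Kir7.1, had 15.19, 15.21, 15.22 and 15.08 in choroid plexus, against 4.30 and 4.53 in blood with 2 blank cells, a difference of 10.76 ± 0.16 (n = 4 and 2). Folr1, the folate receptor through which the epithelium passes folate into the fluid, was higher by 8.71 ± 0.56, with 14.17 to 14.39 in choroid plexus and 4.46 to 7.35 in blood. Kl, the klotho coreceptor for fibroblast growth factor 23, was higher by 7.64 ± 0.51 (n = 4 and 2). Otx2 was higher by 9.90 ± 0.60 (n = 4 and 3), and its second probe by 6.79 ± 0.59. No choroid plexus value of any member overlapped a blood value. Among the 7886 genes with a value on all 8 arrays, which include 3 members (Sostdc1, Folr1 and Enpp2), 61.6% did not overlap.

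**Figure D1:**
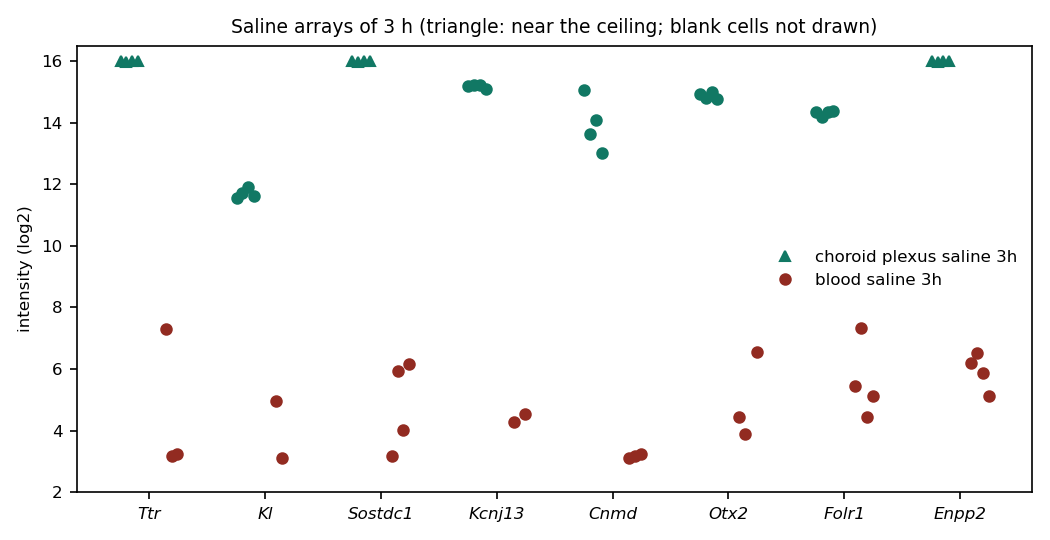
Intensity (log2, vertical axis) of the 8 members on the saline arrays of 3 h, with choroid plexus left and blood right of each gene name. Each point is an array, triangles lie within 0.5 of the array's highest value, and blank cells are not drawn. All choroid plexus points lie at 11.54 or above and all blood points at 7.35 or below.

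Of 30 other epithelial genes tested, 27 were higher in choroid plexus, 1 was lower and 2 did not pass, with a median difference of 5.79. Slco1c1, a carrier of thyroid hormone, was higher by 10.04 ± 0.30, and Igfbp2 by 9.85 ± 0.38. Erythroid genes had the opposite order, with 7 of 7 lower in choroid plexus and a median of -7.60. Both counts are read against the 56.2% of all genes called.

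Over 7 lists of genes related to the members, 67% of the tests were called between the tissues, near the 56.2% of all genes. A gene in more than 1 list was counted in each. Of 17 genes of the klotho and fibroblast growth factor axis, 4 were higher in choroid plexus and 3 lower, with the receptor gene Fgfr2 higher by 9.87 ± 0.53 and Fgf17 lower (-8.77 ± 0.26). Of 22 genes of bone morphogenetic protein and Wnt signalling, 14 were higher and 1 lower. Of 11 genes around lysophosphatidic acid, 8 were higher and 2 lower, with Plpp3, a phosphatase that degrades this lipid, higher by 5.20 ± 0.30. Of 10 folate genes, 5 were higher and 3 lower, with the folate carrier Slc19a1 higher by 3.77 ± 0.20. Of 13 genes for thyroid hormone and retinol carriage, 4 were higher and 6 lower. Of 12 other inward rectifier genes, 5 were higher and 2 lower. Of 9 homeodomain and forkhead genes, 5 were higher and 1 lower.

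After heat and amphetamine, 0 of the 8 members passed the test in any comparison within choroid plexus. At an unadjusted p under 0.05 the count was also 0 in all 6 comparisons over 20 arrays, beside 2.83% to 16.9% of all genes. Without AMPH 1 day replicate 2 the count was 1 in both 1 day comparisons that hold EIH, with Folr1 the gene. The share of all genes there was 5.37% for AMPH against EIH and 19.7% for EIH against saline. Of the 5 members whose level could be read below the ceiling, Kl, Folr1, Kcnj13 and Otx2 each spanned less than 1 log2 over the 19 arrays other than AMPH 1 day replicate 2, and Cnmd spanned 4.18.

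Kl had 11.63, 11.65, 11.79 and 11.51 in AMPH 3 h pools, 11.72, 11.50, 11.37 and 11.77 in EIH 3 h pools, and 11.54, 11.71, 11.91 and 11.60 in saline pools. At 1 day Kl had 11.45, 8.55, 11.73 and 11.69 in AMPH pools and 11.81, 11.57, 12.04 and 11.45 in EIH pools. The groups overlapped, and only AMPH 1 day replicate 2 lay outside 11.37 to 12.04.

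Folr1 had 14.16, 14.23, 14.34 and 14.10 in AMPH 3 h pools, 14.21, 14.03, 14.21 and 14.13 in EIH 3 h pools, and 14.34, 14.17, 14.34 and 14.39 in saline pools. At 1 day it had 14.23, 10.66, 14.09 and 14.20 in AMPH pools and 13.59, 14.02, 14.02 and 13.80 in EIH pools. The 4 EIH 1 day pools all lay below the 4 saline pools.

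Kcnj13 had 15.24, 15.16, 15.41 and 15.20 in AMPH 3 h pools, 14.81, 14.98, 15.24 and 15.19 in EIH 3 h pools, and 15.19, 15.21, 15.22 and 15.08 in saline pools. At 1 day it had 14.75, 12.30, 15.06 and 15.35 in AMPH pools and 14.98, 15.21, 15.32 and 15.43 in EIH pools. Its groups overlapped.

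Otx2 had 14.47, 14.43, 14.45 and 15.18 in AMPH 3 h pools, 14.52, 14.60, 14.88 and 14.29 in EIH 3 h pools, and 14.92, 14.80, 14.98 and 14.75 in saline pools. At 1 day it had 14.80, 11.54, 15.21 and 14.95 in AMPH pools and 14.79, 15.23, 15.06 and 15.22 in EIH pools. In the AMPH 3 h group 3 pools lay below every saline pool and replicate 4 above every one. The second Otx2 probe did not have this order. It had 11.38, 11.40, 11.22 and 11.71 in AMPH 3 h pools and 11.41, 11.37, 11.84 and 11.83 in saline pools, which overlapped.

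Cnmd was the most variable member. It had 13.09, 12.20, 13.83 and 13.22 in AMPH 3 h pools, 13.23, 13.69, 14.45 and 10.87 in EIH 3 h pools, and 15.06, 13.63, 14.08 and 13.01 in saline pools. At 1 day it had 13.34, 10.57, 14.15 and 13.20 in AMPH pools and 13.76, 14.44, 13.18 and 14.33 in EIH pools. Low Cnmd values thus occurred both in AMPH 1 day replicate 2 and in EIH 3 h replicate 4, a pool in which the other members were not low to this degree.

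Ttr, Sostdc1 and Enpp2 stayed at the ceiling, between 15.960 and 15.997, on all arrays but AMPH 1 day replicate 2. There Sostdc1 had 14.27 and Enpp2 14.86, while Ttr was still at the ceiling.

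**Figure D2:**
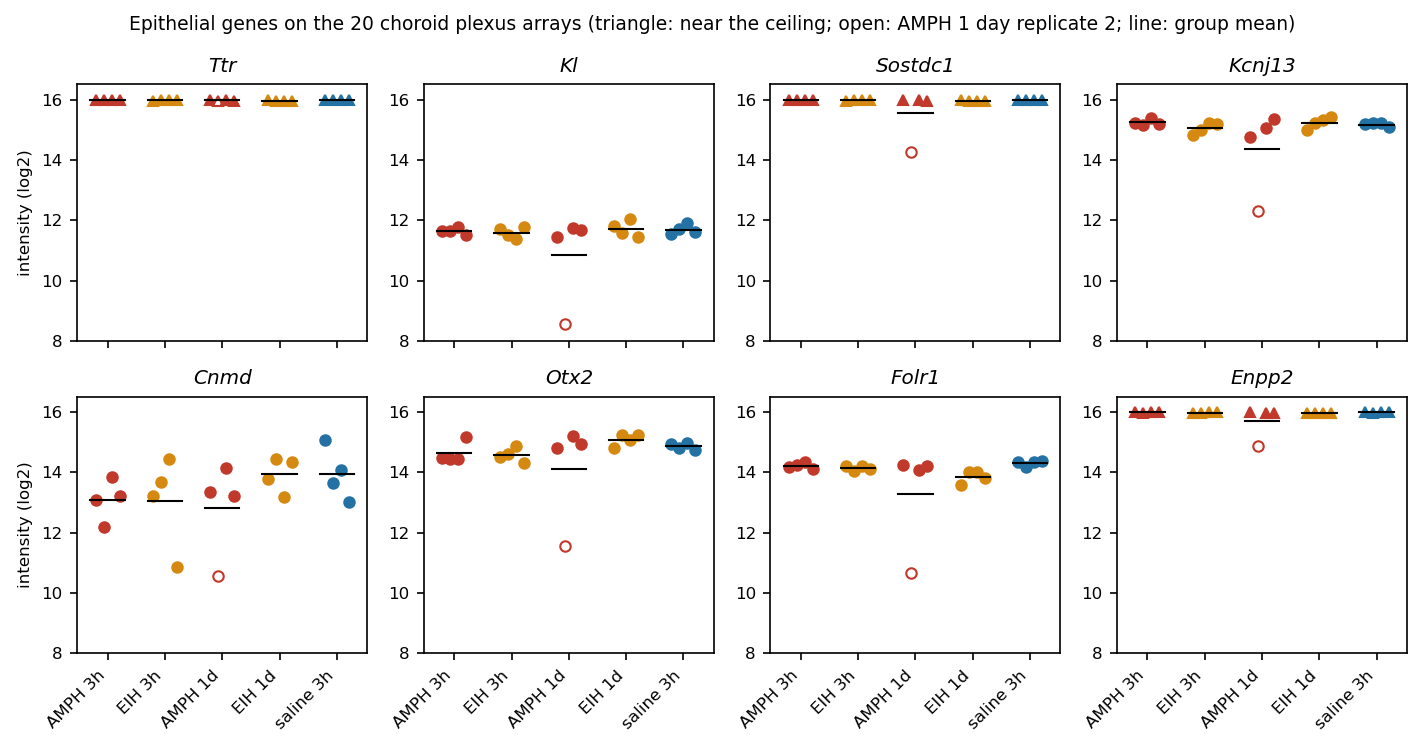
Intensity (log2, vertical axis) of each member in the 20 choroid plexus pools, by group, with 1 point per pool and a line at the group mean. Triangles lie within 0.5 of the array's highest value, and the open point is AMPH 1 day replicate 2, which is lowest for 7 of the 8 members.

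The comparisons at 3 h used saline of the same time. AMPH against saline gave 0 of 8 members called, beside 0.156% of all genes, and without the AMPH 1 day replicate 2, which enters only the shared estimate of spread, 0 of 8 beside 3.41%. EIH against saline gave 0 of 8 beside 0.341%, and 0 of 8 beside 1.67% without that pool. AMPH against EIH gave 0 of 8 beside 0.00973% with or without the pool. Median differences of the members were -0.02 for AMPH and -0.11 for EIH, beside 0.03 and 0.01 over all genes. These medians include the 3 genes at the ceiling, which are held near 0. Over the 5 other members the medians were -0.10 for AMPH, with 4 of 5 estimates negative, and -0.16 for EIH, with 5 of 5 negative. Both exposures share the saline pools.

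How large a change these arrays would have missed differed between the members. With the pool left out, the 95% interval of Kl was -0.34 to 0.24 for AMPH and -0.39 to 0.19 for EIH, and that of Folr1 was -0.32 to 0.11 for AMPH and -0.38 to 0.05 for EIH. The interval of Kcnj13 was -0.20 to 0.36 for AMPH and -0.40 to 0.16 for EIH, and that of Otx2 was -0.59 to 0.14 for AMPH and -0.66 to 0.07 for EIH. Over all 20 arrays the intervals were wider, for Folr1 -1.23 to 1.02 for AMPH and -1.29 to 0.96 for EIH. Cnmd was estimated at -0.86 ± 0.75 for AMPH and -0.89 ± 0.75 for EIH, with adjusted p = 0.642 and 0.657, and its intervals reached below -2.4 in both, so a fall of 4-fold was within them. Single pools decided these estimates: the EIH value was -0.16 without EIH replicate 4, and without saline replicate 1 the values were -0.49 for AMPH and -0.52 for EIH.

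At 1 day AMPH against EIH gave 0 of 8 members called, beside 0% of all genes (556 genes at an unadjusted p under 0.05), and 0 of 8 beside 0% without the pool. The median difference of the 5 members below the ceiling was -0.87 with that pool and -0.10 without it. The sign of the Folr1 estimate differed between the fits, with -0.56 ± 0.53 over 20 arrays and 0.31 ± 0.11 without it, at adjusted p = 0.795 and 0.891 in limma.

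AMPH at 1 day against saline at 3 h gave 0 of 8 members called, beside 0.0294% of all genes, and 0 of 8 beside 0.0894% without the pool. The median of the 5 members below the ceiling was -0.84 with the pool and -0.12 without it, against 0.11 and 0.13 over all genes. EIH at 1 day against saline at 3 h gave 0 of 8, beside 0% of all genes (1265 at an unadjusted p under 0.05), and 0 of 8 beside 0.117% without the pool.

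Folr1 was the member nearest to a call. It averaged 13.86 ± 0.21 in EIH 1 day pools, some of which share rats, and 14.31 ± 0.10 in saline pools (SD, n = 4 pools each). The difference was -0.45 ± 0.53 in limma over 20 arrays (adjusted p = 0.748). Without AMPH 1 day replicate 2 its error was 0.10 and its adjusted p 0.0764 in limma. Without the pools that share a rat number, 1 EIH 1 day pool stood against 3 saline pools, and the estimate was -0.69. The EIH pool kept was replicate 1, which had the lowest Folr1 of its group, at 13.59. AMPH 1 day replicate 2 was among the pools left out, so this fit is not separate from the one without it. The lone pool is assumed there to vary like the other groups. Of 9167 genes 13.2% did not overlap between these groups, 1121 above saline and 87 below it as Folr1 was, so that values wholly below made up 0.949%. Saline replicate 4 was the lowest of the 20 arrays for 27.9% of 8730 genes, which leaves fewer genes that can lie wholly below saline. For Folr1 it was the highest saline pool, at 14.39, so the 0.949% is not a like background for Folr1. The 1 day arrays had the higher medians. The summed level of 9 macrophage genes, none of them blank on any choroid plexus array, was 13.89 to 14.25 (log2) in EIH 1 day pools and 13.47 to 13.58 in saline pools, and its part in the Folr1 difference was not tested.

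**Figure D3:**
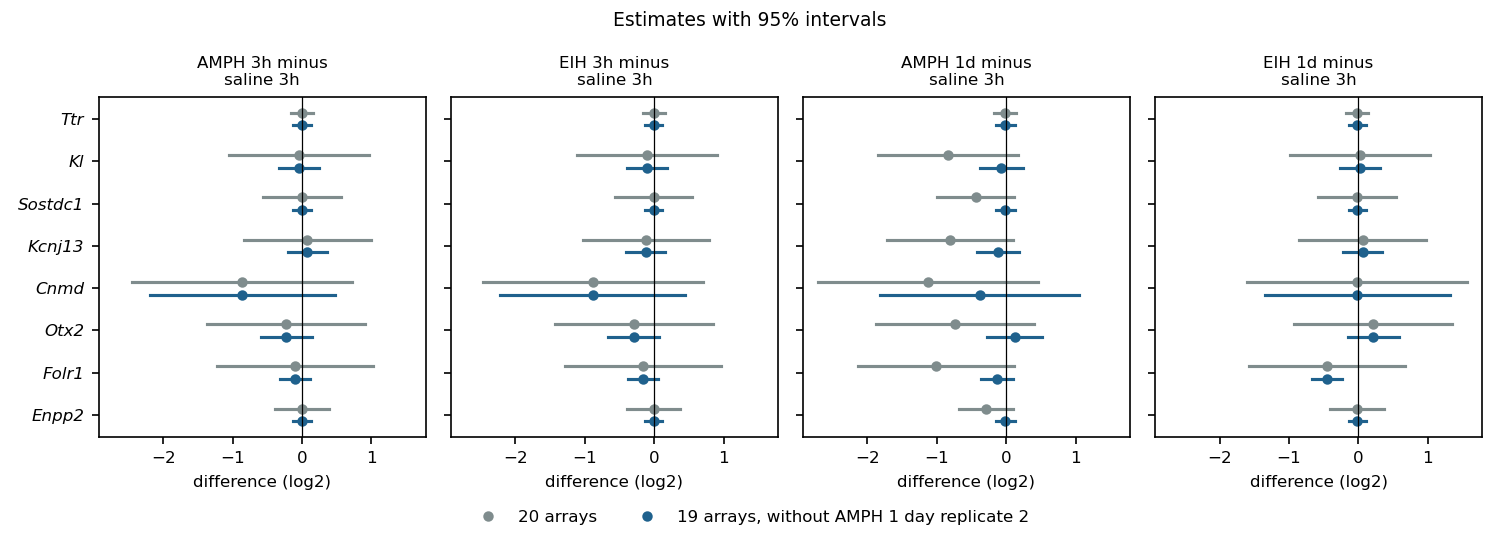
Difference of each exposed group minus saline at 3 h (log2, horizontal axis) for the 8 members, with 95% intervals from limma. Grey is the fit over 20 choroid plexus arrays and blue the fit over 19 without AMPH 1 day replicate 2, in which the Folr1 interval for EIH at 1 day lies below 0 while its adjusted p is 0.0764.

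AMPH 1 day replicate 2 lay far below the other pools for most members. It deviated from the mean of the other 3 AMPH 1 day pools by -3.51 for Folr1, -3.44 for Otx2, -3.07 for Kl, -2.99 for Cnmd and -2.75 for Kcnj13. Sostdc1 deviated by -1.70 and Enpp2 by -1.12 from a ceiling, so these are the least they can have been. The second Otx2 probe had 8.44 there, against 11.78 to 12.10 in the other 3 pools.

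Other epithelial genes were low in the same pool. Of 33 measured, 31 had their lowest value of the 20 arrays there, with a median deviation of -2.70. Htr2c, a serotonin receptor, deviated by -4.04, Clic6 by -3.69 and the bicarbonate transporter Slc4a5 by -3.53, while Aqp1, the water channel, deviated by -0.99. Of 7 ependymal and cilia genes 6 were lowest there (median -2.36). Over all 8730 genes the median deviation was -0.14.

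Genes of other cell types were high in it. All 9 macrophage genes and all 7 erythroid genes had their highest value of the 20 arrays there, with medians of 2.22 and 2.57. Over all genes 23.3% were highest in this pool. Of 11 stromal genes 7 were highest (median 2.12), with the collagen gene Col1a1 4.82 above the other pools, and of 6 mural cell genes 5 were highest (median 1.97). Neuronal genes had a median of 1.19 with 1 of 11 highest there, oligodendrocyte and astrocyte genes 0.46 with 1 of 10, and endothelial genes 0.31 with 3 of 9. The summed erythroid level was 14.57 (log2) in this pool and 11.28 to 12.81 in all groups otherwise. None of the 7 erythroid or 9 macrophage genes was blank on any of the 20 arrays. Their part in the low epithelial values was not tested.

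**Figure D4:**
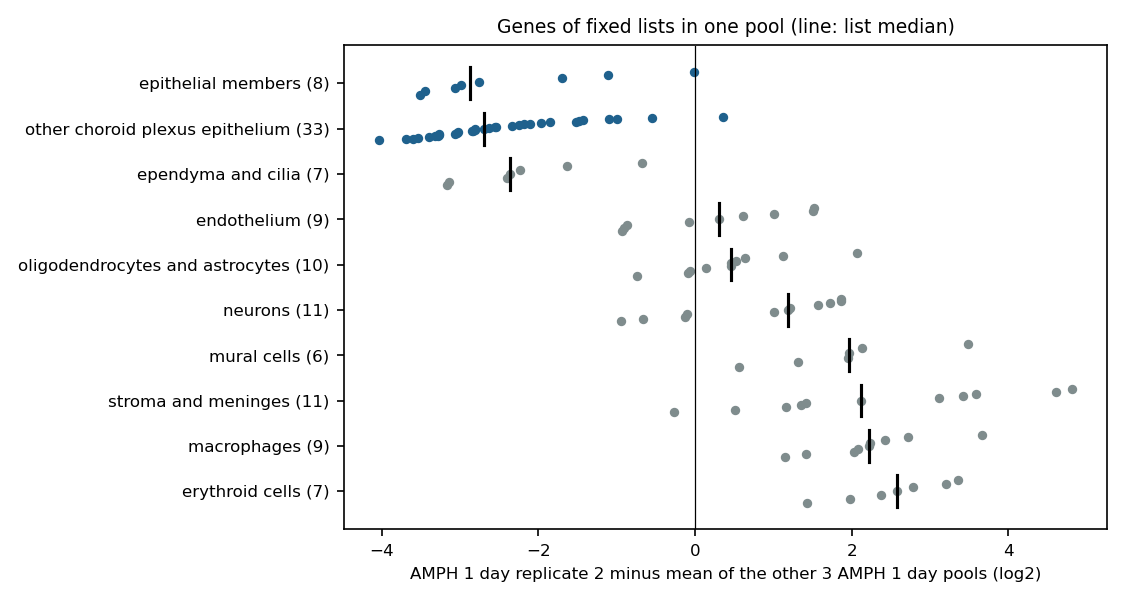
Deviation of AMPH 1 day replicate 2 from the mean of the other 3 AMPH 1 day pools (log2, horizontal axis), with 1 point per gene, a line at each list's median and the number of genes in brackets. The epithelial and ciliary genes lie below 0, apart from Cp at 0.36, and the macrophage and erythroid lists wholly above it.

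Without that pool the spread within groups was smaller. The within-group SD of Kl was 0.71 over 20 arrays and 0.19 over 19, that of Folr1 0.80 and 0.13, that of Otx2 0.81 and 0.24, and that of Kcnj13 0.64 and 0.18. The median gene had 0.35 and 0.26. Cnmd kept an SD of 0.94 over 19 arrays, larger than that of 96.2% of genes. The spread of Ttr, Sostdc1 and Enpp2 cannot be read at the ceiling.

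Correlations between the members changed with that pool. All correlations given here are of deviations from group means. Over 20 arrays the pairwise correlations of Kl, Kcnj13, Otx2 and Folr1 were 0.90 to 0.96, and over 19 arrays -0.39 to 0.25. The correlations of Cnmd with these 4 genes were 0.49 to 0.70 over 20 arrays and -0.44 to 0.55 over 19. All points share their arrays and scaling, so these values are descriptions. Of 8638 genes, Opalin (r = 0.84), Olig1 (0.79) and Mag (0.77), 3 genes known from oligodendrocytes, were most like Cnmd over 19 arrays. Iqub and Iqcg (0.90 each) and Dnai7 (0.86) were most like Otx2, Cds1 (0.87), Mbd6 and Spg7 most like Folr1, Vcp (0.87), Clptm1 and Sh2b2 most like Kl, and Actl6a (0.82), Mesp1 and Esrra most like Kcnj13. The mean of 33 other epithelial genes correlated at 0.74 with Folr1, 0.35 with Kl, 0.19 with Kcnj13, 0.06 with Otx2 and -0.26 with Cnmd over 19 arrays.

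The 8 lists of related genes, other epithelial genes included, held 133 tests at 3 h for each exposure. Over 20 arrays 0.752% were called for EIH, beside 0.341% of all genes, and 0% for AMPH, beside 0.156%. The 1 gene was Pla2g1b, a secreted phospholipase, which rose by 1.54 ± 0.32 after EIH (adjusted p = 0.0472, limma). Without the AMPH 1 day pool 5.26% were called for AMPH, beside 3.41% of all genes, and 1.5% for EIH, beside 1.67%. A gene in more than 1 list was counted in each, as Slco1c1 was among the AMPH calls, which raises the AMPH share. Pla2g1b rose after AMPH as well, by 1.51 ± 0.25. In that fit Slc16a8, a lactate transporter of the epithelium, fell after AMPH (-0.89 ± 0.22) and after EIH (-0.97 ± 0.22). After AMPH the channel subunit gene Kcne2 fell (-0.50 ± 0.12) and the folate enzyme gene Shmt2 fell (-0.70 ± 0.15), while Slco1c1 rose by 0.83 ± 0.14 and Bmp4, a ligand of the pathway that Sostdc1 restrains, rose by 1.72 ± 0.35. The same fit called markers of other cell types after AMPH, with the macrophage gene Aif1 at -1.34 ± 0.29 and the cilia gene Tekt2 at -0.76 ± 0.19. The pituitary genes Lhb and Pou1f1 were called at -0.80 ± 0.20 and -2.15 ± 0.28. Pou1f1 was also called after EIH in that fit (-1.56 ± 0.28), and after AMPH over 20 arrays (-2.15 ± 0.29). It averaged 2.94 in AMPH 3 h pools, near the lower end of the scale. The summed level of 9 macrophage genes was 12.92 to 13.65 (log2) in AMPH 3 h pools and 13.47 to 13.58 in saline pools. The part of these cells in the epithelial differences was not tested. No listed gene was called in the 1 day comparisons of choroid plexus.

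In blood the members were near the lower end of the scale, and only Ttr exceeded 8.105, the highest value of any other member. Ttr had 9.012, 10.028, 6.997 and 12.461 in AMPH 3 h blood, 11.12, 6.11, 6.78 and 8.39 in EIH 3 h blood, and 7.30, 3.18 and 3.24 with a blank cell in saline 3 h blood. At 1 day it had 6.16, 5.39, 9.33 and 6.77 in AMPH blood, 5.20, 6.06, 6.58 and 6.83 in EIH blood, and 5.20, 9.79, 4.31 and 6.36 in saline blood. Values spread widely within groups, and saline at 1 day reached above 9 in 1 rat.

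AMPH against saline at 3 h gave 1 of 8 members called in blood, beside 8.68% of all genes: Ttr, by 5.05 ± 1.46 (n = 4 and 3; adjusted p = 0.0358, limma). That call was lost when intensities under 16 were set to 16 (adjusted p = 0.0517, limma) and when only the compared groups were fitted (0.0946). It was also lost without saline replicate 1, 3 or 4 or AMPH replicate 1, 2 or 4, where the adjusted p reached 0.136. Ttr was blank on saline replicate 1, so its own values and difference did not change when that array was left out. EIH against saline at 3 h gave 0 of 8 beside 12.6%, with Ttr at 3.52 ± 1.46 (adjusted p = 0.128, limma). At an unadjusted p under 0.05 it gave 1 member, beside 25.6% of all genes. At 1 day AMPH gave 0 of 5 members tested beside 2.08%, and EIH 0 of 6 beside 0.082%. At an unadjusted p under 0.05 both gave 0 members at 1 day, beside 17.9% of all genes for AMPH and 10.3% for EIH.

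Ttr is also made in liver, and in blood it went with liver transcripts. The mean level of 6 other liver genes measured on all 24 blood arrays correlated with Ttr at r = 0.90 and rho = 0.92 over the 23 arrays with a Ttr value, and at r = 0.89 for deviations from group means. The other 7 members had r from -0.29 to 0.26 overall and from -0.31 (Cnmd) to 0.58 (Kcnj13) for deviations from group means. Alb, the albumin gene, differed by 5.52 ± 1.90 between AMPH and saline at 3 h (adjusted p = 0.0825), and Tf, the transferrin gene, rose by 1.83 ± 0.33 (adjusted p = 0.00303). The part of liver transcripts in the Ttr difference was not tested.

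**Figure D5:**
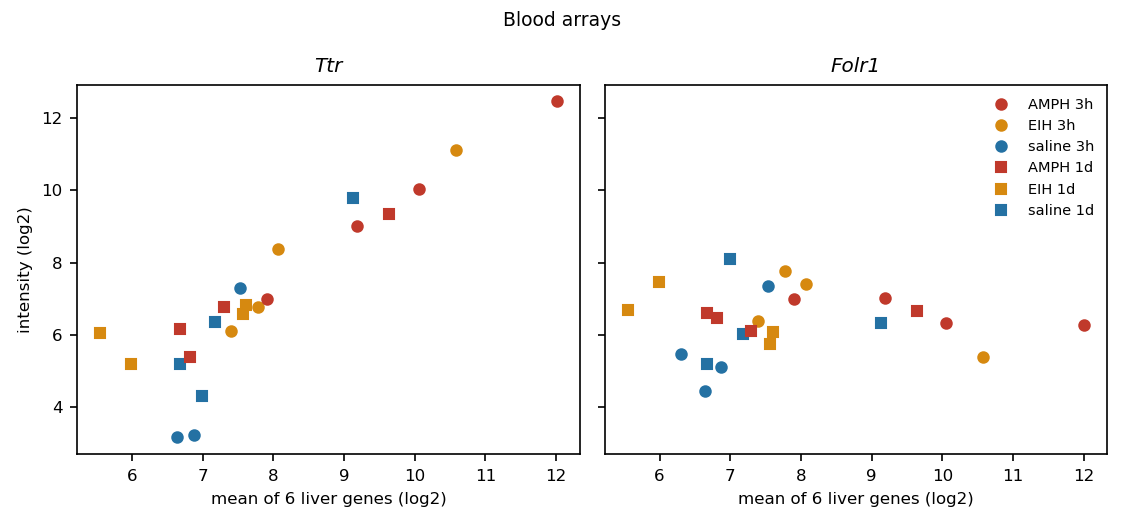
Intensity (log2, vertical axis) of Ttr and of Folr1 against the mean of 6 liver genes (log2, horizontal axis) on the blood arrays, coloured by exposure, with circles for 3 h and squares for 1 day. Ttr climbs along the liver mean (r = 0.90) and Folr1 does not (r = 0.01).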

How the data were processed

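Per the labels' protocols, RNA isolated with Tri Reagent was hybridised to Agilent arrays with the single dye Cy3. The authors deposited linear intensity values, 14055 probes on 44 arrays, with 0 columns from outside the series. Scanner software, normalization and blank-cell rule are not stated in the labels or file headers. Blank cells (3.05% in choroid plexus, 8.57% in blood) stayed missing. No saturation flags were used, so values within 0.5 of an array's highest log2 value are called near the ceiling. Of the probes, 12926 had 1 gene symbol, 0 several and 1129 none.

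Intensities were taken to log2 with a floor of 1, which altered 0 values, and the probe with the highest mean stood for its gene. Every gene was fitted with limma 3.58.1 in R 4.3.3 (the data.table package, version 1.17.8), with group means over the 20 choroid plexus arrays, the 24 blood arrays or both saline groups of 3 h. A gene needed 2 values per group, and calls were made at p under 0.05 after Benjamini-Hochberg adjustment. Named genes are the members, called genes of the fixed lists, the 3 genes most like each member, and examples from lists. Tested on simulated data for EIH against saline at 3 h (8730 genes, 200 changed), 50% of 2-fold and 81% of 4-fold changes were called. The changed genes were drawn at random, so these rates are not those of the members. The noise was independent between genes and arrays, with each gene's spread over the 20 arrays. In the data, part of that spread sits in AMPH 1 day replicate 2 and is shared by many genes.

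The members and lists were chosen with earlier results of these data known. Alternatives covered normalization, floor, ceiling, filters, weights, probes, single arrays, recurring rats and outlying pools. A fit without both pools that stood apart, and promoter searches for TAATC and TATAAA, were added after seeing the data. Figures used matplotlib 3.10.9, pandas 2.3.3 and numpy 2.4.6 in Python 3.11.15.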

Additional observations from a re-analysis of the deposited data

Results flagged for a closer look

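In 52 groups of 4 arrays tested for a value far from the other 3, 8 values stood out, where chance alone gives about 1 in 20. In choroid plexus AMPH 1 day replicate 2 these were Kl at 8.555, Otx2 at 11.541, Folr1 at 10.660, Sostdc1 at 14.269 and Enpp2 at 14.857. They belong to a single pool that had already been singled out, and are not independent of each other. For Sostdc1 and Enpp2 the other 3 pools lay at the ceiling, where any lower value stands out. Otx2 stood out at 15.184 in choroid plexus AMPH 3 h replicate 4. Its second probe had 11.711 there, within the range of the saline pools on that probe (11.374 to 11.837). In blood, Kcnj13 stood out at 4.555 in AMPH 3 h replicate 4 and Enpp2 at 4.820 in EIH 1 day replicate 3, both low on the scale.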

How the results depend on the processing

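The count of members called was within 1.5 times its first value in 218 of the settings and comparisons tried and moved in 10. With values near the ceiling left out, 5 members, all those still tested, were called between choroid plexus and blood. With pools that share a rat number left out, the count for EIH at 1 day against saline at 3 h moved through Folr1. That fit held 1 EIH pool against 3 saline pools. For blood AMPH at 3 h the count was 0 with a floor of 16 and 0 with only the compared groups. Leaving out single arrays gave 6 to 8 members between the tissues, 0 to 1 for blood AMPH at 3 h, and 0 in the other 9 comparisons. Between the tissues every member still tested was called. Kl and Kcnj13 had only 2 values each in saline blood and went untested when 1 of these was left out. No called difference changed sign. Counts over all genes moved far more: for EIH at 3 h, 35 genes became 0 to 966, for AMPH at 3 h 16 became 0 to 1214, and for AMPH against EIH at 1 day 0 became up to 184. For EIH at 1 day 0 became up to 246, and for AMPH at 1 day 3 became 0 to 14. In blood at 3 h the counts ran from 836 to 1804 for EIH and from 448 to 1460 for AMPH. At 1 day they ran from 0 to 36 for EIH and from 0 to 404 for AMPH. The highest counts for AMPH against EIH and for EIH at 1 day in choroid plexus came from the fit that kept 1 EIH 1 day pool. The cause of these shifts was not tested. Leaving out both pools that stood apart, an alternative chosen after seeing the data, left the members' counts within choroid plexus at 0. No paired analysis was possible because replicates were numbered in accession order and the labels pair no pools one to one. With arrays that share a rat number as a random block, 8 of 8 members were called between the tissues. In the first fit 5581 of 9925 genes were called there, and 5133 to 6041 over the other settings. The member counts between the tissues are read beside these. The ceiling limits Ttr, Sostdc1 and Enpp2, and blank cells limit the members in blood.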
